A study of Ictidomys tridecemlineatus with 15 samples.

Results

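Retinal ganglion cells (RGCs) were compared with early-stage neurogenic progenitors in the embryonic retina of the 13-lined ground squirrel (13LGS), a diurnal rodent with a cone-rich retina. Cells were taken by the deposited annotation, as all cells called RGC or Early_NG in the 7 libraries collected before birth. These were 5700 ganglion cells and 1762 neurogenic progenitors, 7462 of the 19630 cells of the embryonic libraries and of the 53394 cells in the whole matrix. Whole retinas came from timed pregnant captive dams, with 1 library at embryonic day 18 (E18) and a pair of libraries at each of E21, E24 and E26. The labels give no treatment or genotype. The members of a pair are called a and b, letters that are unrelated to the labels' replicate numbers.

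Ganglion cells are the output neurons of the retina. Their axons form the optic nerve, and they are among the first neurons that retinal progenitors produce. A neurogenic progenitor is a cell that has left the self-renewing pool and is on its way to a neuron, and the early-stage cells of this kind give rise to ganglion cells, horizontal cells and cones. The comparison asks which part of the transcriptome separates the new projection neuron from the cell state that precedes it, and whether that separation moves with age.

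The files as held here do not pair gene names with the rows of the count matrix. A gene is therefore called by its matrix row (the first row is row 1), and the annotation could not be checked against the defining markers of either type. The annotation was made from clusters of these same cells, so that genes which set it are among those that differ between the types. Counts are of unique molecular identifiers (UMIs), each of which stands for 1 captured mRNA molecule, and levels are UMIs per 1e6 UMIs (CPM) of the sum of a type in a library.

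The E18 library held 1119 ganglion cells and 484 neurogenic progenitors. E21a held 622 and 192, E21b 580 and 158, E24a 710 and 233, and E24b 782 and 146. E26a held 1196 and 425, and E26b 691 and 124. Ganglion cells outnumbered neurogenic progenitors in every library, by 2.31 at E18, 3.24 and 3.67 at E21, 3.05 and 5.36 at E24, and 2.81 and 5.57 at E26. The libraries of one age differed as much as libraries of different ages. The ratio had no relation to embryonic day past the threshold over 7 libraries (Spearman's rho 0.39, exact permutation p = 0.413, adjusted p = 0.47, and Pearson's r 0.54, exact permutation p = 0.217, adjusted p = 0.326). Without E18 and E21a, the r was 0.09. Between 0 and 8 cell barcodes were shared by any 2 of these libraries.

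Ganglion cells carried more mRNA molecules per cell than neurogenic progenitors in all 7 libraries. The median was 7573 UMIs per ganglion cell against 5910 per neurogenic progenitor at E18, 10600.5 against 7233.5 in E21a and 14075 against 9684 in E21b. It was 9271 against 6074 in E24a, 14126 against 8529 in E24b, 8692.5 against 4656 in E26a and 12523 against 6478.5 in E26b. Within each library the ganglion cells were higher, although the medians of the types overlapped between libraries. The mean log2 ratio was 0.66 ± 0.21 (SD, n = 7), a 1.58-fold difference (exact two-sided sign-flip permutation p = 0.0156, the smallest that 7 pairs allow, adjusted p = 0.0156 over 3 such measures).

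The gap in median UMIs widened with age. The ratio of medians was 1.28 at E18, 1.47 and 1.45 at E21, 1.53 and 1.66 at E24, and 1.87 and 1.93 at E26, so that the ages did not overlap. Its rho with embryonic day was 0.97 (exact permutation p = 0.00317, adjusted p = 0.00952) and its r was 0.95 (exact permutation p = 0.00159, adjusted p = 0.00476), with adjustment over 3 relations with age. Without E18 and E21a the r was 0.92, and without E18 and E21b it was 0.91, over 5 libraries. This relation was looked at after the library values had been seen. It describes the middle of each population and was not tested for means. By means, ganglion cells stood at 8048 against 6148 UMIs at E18, 11546 against 9322 in E21a and 15099 against 10536 in E21b. They stood at 10199 against 8030 in E24a, 15979 against 11152 in E24b and 15335 against 9771 in E26b. The ratio of means did not follow the order of age. The mean UMI count of the neurogenic progenitors in E26a was 9565, above the 9481 of the ganglion cells there, and 75 of the 425 progenitors (17.6%) had over 2 times their median. Such cells were 3.1% of the neurogenic progenitors at E18 and 4.43% to 16.1% in the other 5 libraries, against 2.41% to 8.68% of the ganglion cells. With means in place of medians the log2 ratio was 0.39 (exact permutation p = 0.0312), with 6 of 7 libraries above 0.

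**Figure D1:**
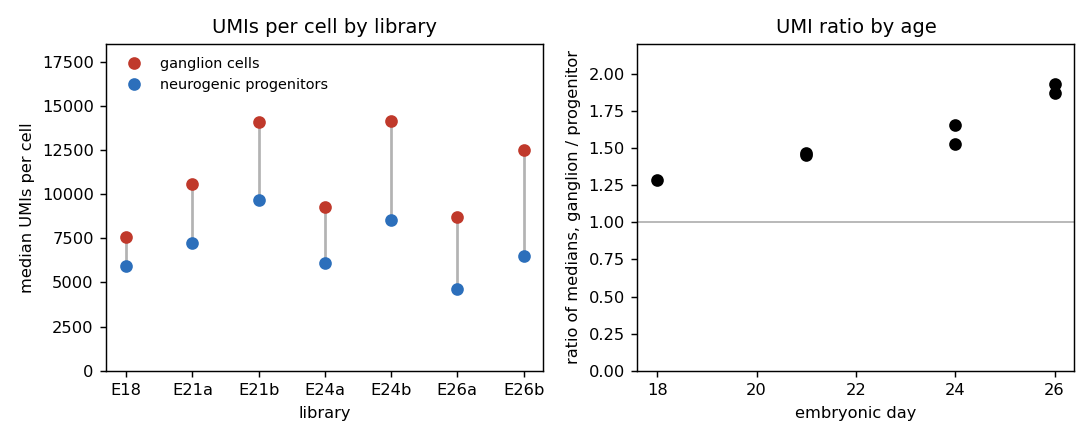
Left, median UMIs per cell of ganglion cells (red) and neurogenic progenitors (blue) in each embryonic library, joined by a line within the library. Right, the ratio of the 2 medians against embryonic day, 1 point per library, which goes from 1.28 at E18 to 1.87 and 1.93 at E26, with a grey line at 1.

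Ganglion cells also spread their molecules over more genes. When every cell was thinned to 2000 UMIs, so that depth was equal, the median ganglion cell had 1125 to 1195 detected gene rows and the median neurogenic progenitor 1040.5 to 1141. The difference was 64.5 ± 27.6 rows (SD, n = 7), positive in 7 of 7 libraries (exact sign-flip permutation p = 0.0156, adjusted p = 0.0156). From 0 to 6 ganglion cells and 0 to 13 neurogenic progenitors of a library had fewer UMIs and were left out. Before thinning, the medians were 2854 to 4290 rows in ganglion cells and 1913 to 3337 rows in neurogenic progenitors.

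The 100 most abundant rows of a sum took 30.7% to 34.5% of the UMIs in ganglion cells and 33.4% to 40.3% in neurogenic progenitors. The share was lower in ganglion cells in 7 of 7 libraries, with a mean difference of −4.09 percentage points (SD 2.10, n = 7, exact sign-flip permutation p = 0.0156, adjusted p = 0.0156). The direction turned when the 20 most abundant rows were taken, to 1.71 points higher in ganglion cells (exact permutation p = 0.0312), with E26a as the exception. The turn rested on 1 row. Row 17000, which held more UMIs than any other row, took 4.93% of all ganglion cell UMIs at E18, 6.21% and 6.37% at E21, 7.91% and 7.25% at E24, and 6.80% and 7.40% at E26. In neurogenic progenitors it took 2.42% at E18, 3.26% and 3.78% at E21, 4.89% and 4.18% at E24, and 4.66% and 5.28% at E26. It was higher in ganglion cells within every library, by 2.63 ± 0.40 points (SD, n = 7), and its log2 fold change was 0.68 (SE 0.08, edgeR's quasi-likelihood test, adjusted p = 6.90e-06). Without this row, which was picked out after its values had been seen, the 20 most abundant rows took 0.81 points less in ganglion cells (exact permutation p = 0.0469) and the 100 most abundant took 6.26 points less (exact permutation p = 0.0156).

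Across the transcriptome, most measured genes differed between the types. UMI counts were summed per library and type and tested with edgeR's quasi-likelihood test with the library as a block, and the threshold for a call was 0.05 on the Benjamini-Hochberg adjusted p. Of 13993 rows tested, 9511 (68.0%) were called, 4803 (34.3%) higher and 4708 (33.6%) lower in ganglion cells. A further requirement of a 2-fold difference left 2530 higher (18.1%) and 1910 lower (13.6%). In 4612 rows (33.0%) the 7 ganglion cell levels and the 7 neurogenic progenitor levels did not overlap, 2489 of them higher and 2123 lower in ganglion cells. With shares this large, the size of a difference says more than the call.

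Differences of less than 2-fold were more often lower in ganglion cells, and those above 2-fold more often higher. Among the rows called higher, 2273 differed by less than 2-fold, 1374 by 2- to 4-fold, 583 by 4- to 8-fold and 573 by more. Among those called lower, the numbers were 2798, 1158, 345 and 407. These counts come from the full sums, which were deeper in ganglion cells. With equal numbers of cells per sum, 3053 rows were called higher and 3269 lower. With sums thinned to the smallest sum, the calls were 3219 and 3158. Whether the split by size holds at equal depth was not tested. A near-switch, with a mean of at least 100 CPM in one type and at most 5 CPM in the other, was found in 12 rows higher and 11 rows lower in ganglion cells. At the upper end, 19 rows with a mean of at least 1000 CPM were at least 2-fold higher in ganglion cells and 13 were at least 2-fold lower.

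**Figure D2:**
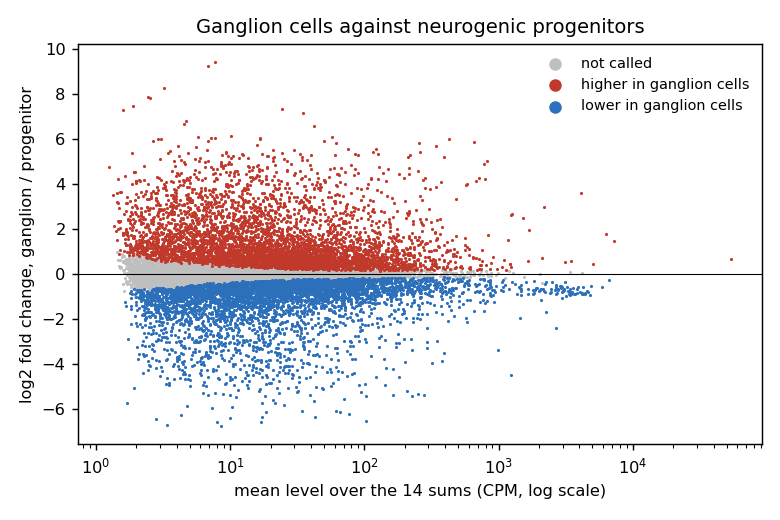
Each point is 1 of the 13993 gene rows tested, with its mean level over the 14 sums (CPM, log axis) and its log2 fold change of ganglion cells over neurogenic progenitors. Rows called higher in ganglion cells are red (4803), rows called lower are blue (4708) and the others grey; the point at the far right is row 17000.

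The rows at least 2-fold higher in ganglion cells took 20.1% of the ganglion cell UMIs on average (15.7% to 22.4% over 7 libraries) and 4.82% of the neurogenic progenitor UMIs. The same rows took 8.80% in horizontal cells, interneurons that are also born early, 6.39% in photoreceptor precursors and 4.47% in early-stage primary progenitors, the self-renewing cells. The rows at least 2-fold lower in ganglion cells took 3.71% of ganglion cell UMIs, 12.5% of neurogenic progenitor UMIs and 13.0% of primary progenitor UMIs, with 6.27% in horizontal cells and 8.10% in photoreceptor precursors. The ganglion cell and neurogenic progenitor values follow from how the rows were chosen. The values of the other types did not enter the choice. Horizontal cells and photoreceptor precursors lay between ganglion cells and neurogenic progenitors in each set, and primary progenitors lay just beyond the neurogenic progenitors. Rows picked for a wide gap between 2 types favour such middle values in other types, so this is a description.

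The 4 rows named here were the 2 in each direction with the largest fold change among called rows that did not overlap between types and averaged at least 100 CPM in the higher type. Row 11720 stood at 651 CPM in E18 ganglion cells, 824 and 773 CPM at E21, 737 and 1038 CPM at E24, and 713 and 1141 CPM at E26. In neurogenic progenitors it stood at 4.85 CPM at E18, 11 and 6.19 CPM at E21, 15.1 and 12.2 CPM at E24, and 27.5 and 14.9 CPM at E26. The lowest ganglion cell sum was thus far above the highest progenitor sum. The log2 fold change was 6.0 (SE 0.23, edgeR adjusted p = 3.72e-10). At 2000 UMIs per cell, 54.9% to 79.7% of ganglion cells had a UMI of this row, against 0.633% to 5.65% of neurogenic progenitors, 4.14% to 16.0% of horizontal cells and 0.933% to 4.36% of primary progenitors. Primary progenitors give the level of a cell type far from the ganglion cell, and the progenitor shares overlapped it.

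Row 6890 ran from 63.4 CPM in E18 ganglion cells to 150 CPM in E26b, with 98.2 and 92.6 CPM at E21, 146 and 115 CPM at E24 and 137 CPM in E26a. In the neurogenic progenitors only 27 UMIs of this row were counted among 15205566, of which 24 were in E26a (6.80 CPM), 2 in E24b and 1 in E21b. The log2 fold change of 6.07 (SE 0.38, edgeR adjusted p = 1.56e-08) was therefore set by E26a on the progenitor side, and without that library it was 8.45. Without the cells of over 2 times the median UMIs it was 8.22. Ganglion cells with a UMI of row 6890 made up 9.79% to 22.3% of cells at 2000 UMIs, and horizontal cells 1.91% to 5.06%.

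Row 5621 had the opposite pattern. Neurogenic progenitors held 233 CPM at E18, 216 and 221 CPM at E21, 224 and 156 CPM at E24, and 131 and 242 CPM at E26, and no ganglion cell sum was above 3.32 CPM. The log2 fold change was −6.52 (SE 0.16, edgeR adjusted p = 3.42e-11). Row 92 averaged 153 ± 40.2 CPM in neurogenic progenitors (SD, n = 7, 99.4 to 213 CPM) and 2.01 ± 0.68 CPM in ganglion cells, with a log2 fold change of −6.19 (SE 0.21, edgeR adjusted p = 1.44e-10). Both rows were shared with the self-renewing pool. Primary progenitors averaged 178 CPM of row 5621 and 241 CPM of row 92, and horizontal cells 3.44 and 2.60 CPM. Both rows were thus near 0 in both types of early neuron.

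**Figure D3:**
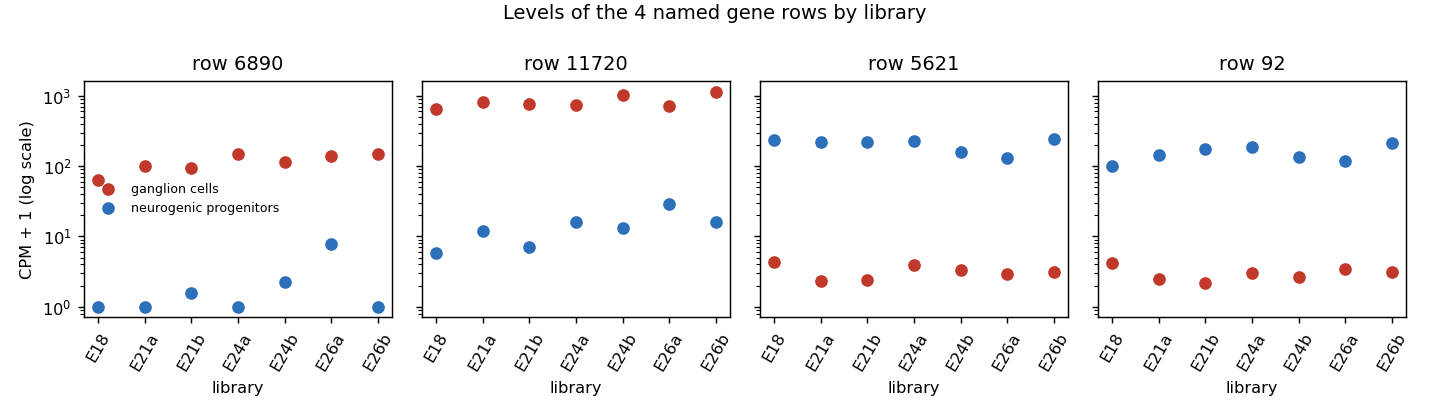
Levels of rows 6890, 11720, 5621 and 92 in each embryonic library, as CPM + 1 on a log axis, for ganglion cells (red) and neurogenic progenitors (blue). The types do not overlap in any of the 4 rows, and the highest progenitor value of row 6890, 6.80 CPM, is in E26a.

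Single cells were placed between the types by 100 rows higher and 100 rows lower in ganglion cells, chosen for each library from the other 6, as the share of a cell's UMIs in both sets of rows that fell in the higher set. The median ganglion cell had 92.9% at E18 and 96.6% to 97.7% from E21 on. The median neurogenic progenitor had 3.08% to 7.14%. Few cells lay in between, since 168 of the 5700 ganglion cells (2.95%) and 11 of the 1762 neurogenic progenitors (0.624%) had a share of 40% to 60%. By library, such ganglion cells were 7.24% at E18, 4.66% and 3.45% at E21, and 0.512% to 1.51% from E24 on. The annotation used the same genes, so these values describe it and carry no test.

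By this score, annotated ganglion cells on the progenitor side of the middle became rarer with age. A share of at most 50% was found in 219 of the 1119 ganglion cells at E18 (19.6%), in 10.5% and 11.6% at E21, in 2.39% and 2.81% at E24, and in 2.17% of both E26 libraries, 431 cells in all. The E18 library had the most, and the 4 libraries from E24 on lay within 1 percentage point of each other. The rows that scored E18 were chosen at E21 to E26 only. On the same score, shares in horizontal cells and photoreceptor precursors also rose with age. Whether the choice of rows bears on the fall was not tested. The reverse was rare, with 9 of 1762 neurogenic progenitors over 50%, 7 of them in E26a. Leaving out these 440 cells, an alternative added after the data were seen, gave 9630 called rows, 4863 higher and 4767 lower. On these rows, chosen for the gap between the other types, horizontal cells lay in the middle. Their medians were 33.3% at E18 (25 cells), 56.6% and 52.9% at E21, 68.4% and 73.4% at E24, and 74.0% and 71.0% at E26.

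**Figure D4:**
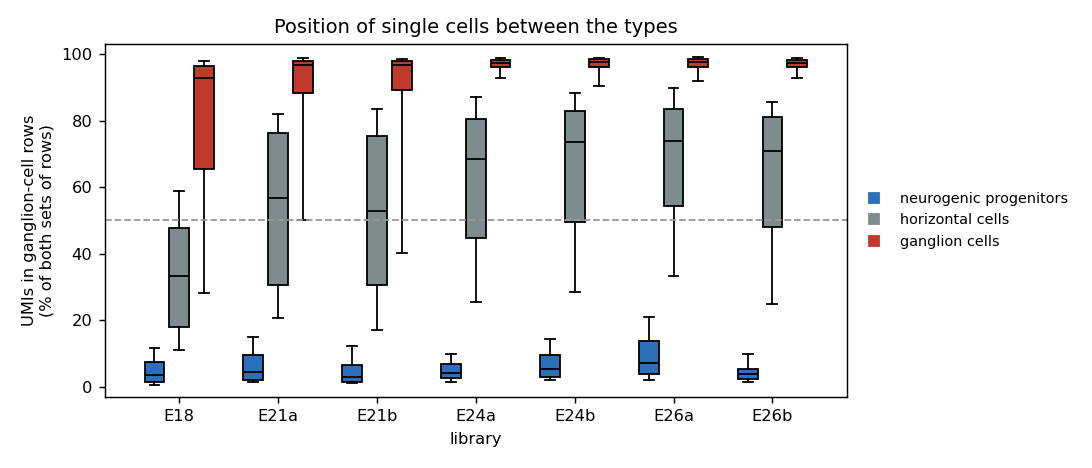
Share of UMIs in ganglion cell rows (percent of the UMIs in both sets of rows) per cell, for neurogenic progenitors (blue), horizontal cells (grey) and ganglion cells (red) in each library. Boxes hold the quartiles with the median as a line and whiskers reach the 10th and 90th percentiles; the lower whisker of the ganglion cells reaches below the dashed line at 50% at E18 and E21 and stays above it at E24 and E26.

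A test of the product of cell type and embryonic day asked which differences moved with age. It called 1129 of 13993 rows (8.07%), 340 in which the ganglion cell level gained on the progenitor level (2.43%) and 789 in which it lost (5.64%). In the 340 rows, the median slope was 0.08 log2 units per day in ganglion cells and −0.08 in neurogenic progenitors. In the 789 rows it was −0.07 in ganglion cells and 0.08 in neurogenic progenitors. Over all ages, 517 of the 789 rows were called lower and 161 higher in ganglion cells. Of the 340 rows, 216 were called higher and 37 lower. Among all rows tested, 33.6% were called lower and 34.3% higher. Over all rows tested the median slopes were 0.0002 and 0.0034. The slopes of the types had opposite signs in 237 of the 340 rows and in 509 of the 789 rows, against 4872 of all 13993 rows tested. These slopes come from the contrast that chose the rows and are a description.

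The balance of directions did not hold when cells were left out. Without the cells of over 2 times the median UMIs, whose share in the progenitors was 3.1% at E18 and 17.6% in E26a, 596 rows gained and 619 lost. Without the 440 cells on the other type's side of the middle, whose share also changed with age, 609 gained and 708 lost. The number of calls rested on the youngest library, with 307 rows (100 gaining and 207 losing) called without E18, 666 without E21a and 719 without E21b, where one age fewer or 1 library fewer also leaves less to test.

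Called rows with at least 100 CPM in the highest group were ranked only where the differences at E24 and E26 did not overlap those at E18 and E21. Of these, rows 26501 and 11242 had the largest gains. Row 26501 was at 2.32 CPM in E18 ganglion cells, 3.67 and 2.54 CPM at E21, 30.4 and 14 CPM at E24, and 31.3 and 25.6 CPM at E26, while neurogenic progenitors stayed between 88.8 and 176 CPM. Its difference moved by 0.51 log2 units per day (SE 0.06, edgeR adjusted p = 5.57e-05) and progenitors were higher in every library. Embryonic photoreceptor precursors averaged 491 CPM of this row, above both types. Whether this bears on the gain was not tested. Row 11242 was at 29.3 CPM in E18 ganglion cells, 133 and 145 CPM at E21, 309 and 259 CPM at E24, and 304 and 317 CPM at E26, against 10.3 to 31.5 CPM in progenitors. At E18 the types were level, and from E21 on the ganglion cells were higher in each library. The slope was 0.47 log2 units per day (SE 0.08, edgeR adjusted p = 0.00151), but without E18 it was 0.15 (edgeR adjusted p = 0.338).

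By the same rule, rows 30184 and 21522 had the largest losses, and both were high in ganglion cells, with their highest progenitor level in E26a. Row 30184 was at 325 to 499 CPM in ganglion cells. In neurogenic progenitors it was at 1.39 CPM at E18, 3.67 and 2.25 CPM at E21, 13.2 and 4.87 CPM at E24, and 71.4 and 7.45 CPM at E26. The slope of the difference was −0.67 log2 units per day (SE 0.11, edgeR adjusted p = 0.00137) and −0.32 without E26a (edgeR adjusted p = 0.00516). It was −0.33 without cells of over 2 times the median UMIs. Row 21522 was at 41.1 CPM in the E26a progenitors and at 0 to 13.8 CPM in the other 6, against 265 to 681 CPM in ganglion cells. Its slope of −0.64 (SE 0.13, edgeR adjusted p = 0.00536) was −0.31 without E26a (edgeR adjusted p = 0.0602) and −0.17 without cells of over 2 times the median UMIs (edgeR adjusted p = 0.362).

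Over all rows, the spread of the difference between types had no clear relation to age. The root mean square of the log2 difference was 1.21 at E18, 1.33 and 1.37 at E21, 1.42 and 1.46 at E24, and 1.18 and 1.53 at E26. Its rho with embryonic day was 0.33 (exact permutation p = 0.47, adjusted p = 0.47) over 7 libraries. E26a alone was out of order, and without it the rho was 0.97 (exact permutation p = 0.0111, n = 6, not adjusted). E26a was also the library least like E18, with a correlation of the row differences of 0.85 over 3193 rows, against 0.98 between the E21 libraries.

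To set the ganglion cells beside another neuron of the same retinas, they were compared with the 2303 horizontal cells, interneurons of the outer retina, of the 7 libraries. Of 13556 rows, 7915 (58.4%) were called, 3875 higher (28.6%) and 4040 lower (29.8%) in ganglion cells, and at a 2-fold difference 1656 higher (12.2%) and 991 lower (7.31%). Row 17562 was at 101 to 134 CPM in ganglion cells and at 0 to 1.67 CPM in horizontal cells, 7 UMIs in all, with a log2 fold change of 7.55 (SE 0.20, edgeR adjusted p = 2.22e-15). Row 24399 was at 95.6 to 312 CPM against 0 to 4.96 CPM (log2 fold change 6.64, SE 0.16, edgeR adjusted p = 7.32e-16). Both were also low in neurogenic progenitors, at means of 1.48 and 4.35 CPM.

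Rows 31159 and 32094, named for the largest excess in embryonic horizontal cells, were nearly silent in ganglion cells. That low level follows from how the rows were chosen. Row 31159 was at 116 to 330 CPM in horizontal cells, with 42 UMIs among 66617158 in ganglion cells (log2 fold change −8.17, SE 0.19, edgeR adjusted p = 5.73e-16). Row 32094 was at 99.9 to 175 CPM in horizontal cells and at 0 to 1.37 CPM in ganglion cells (log2 fold change −7.92, SE 0.23, edgeR adjusted p = 7.79e-15). In neurogenic progenitors the means were 11.3 and 3.99 CPM. The E18 sum of horizontal cells came from 25 cells.

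The contrast was then read in 6 postnatal libraries that the embryonic comparison had not used, between ganglion cells and late-stage neurogenic progenitors, the cells that go on to later-born neurons. P4, P8, P12 and P17 gave 2182 cells, with median UMIs per cell of 3180 to 14750 in ganglion cells and 1373 to 4769 in progenitors. P8b stood apart, with a median correlation of its row differences with the other libraries of 0.73 against 0.86 to 0.91, and it held 33 late-stage neurogenic progenitors. Of 7794 rows tested, 4329 (55.5%) were called, 2375 higher (30.5%) and 1954 lower (25.1%) in ganglion cells, and 4696 without P8b. At a 2-fold difference 1620 were higher (20.8%) and 977 lower (12.5%).

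Among rows tested at both stages, the embryonic difference largely carried over. Over the 7716 rows tested at both stages, the log2 fold changes had a Pearson correlation of 0.79 and a Spearman correlation of 0.73 across genes, which are not independent replicates. Of the 3582 rows called at both stages, 3290 (91.8%) had the same direction. Among the rows at least 2-fold higher in embryonic ganglion cells, 1276 of the 1523 that could be tested after birth (83.8%) were called higher again, against 30.1% of all rows tested at both stages. Among those at least 2-fold lower, 446 of 586 (76.1%) were called lower again, against 25.1%. These shares leave out the rest of the 2530 higher and 1910 lower rows, which did not pass the postnatal filter on low counts. A row can pass that filter through the type where it is high. The cell types of both stages also come from the same annotation, so the postnatal libraries are no independent check of it. The direction turned in 292 rows, from higher to lower in 183 and from lower to higher in 109. P21 did not have at least 10 cells of both types and was not compared, but its ganglion cells enter the means over 7 postnatal libraries. In these, row 11720 averaged 2359 ± 638 CPM and row 6890 averaged 203 ± 30.7 CPM (SD).

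**Figure D5:**
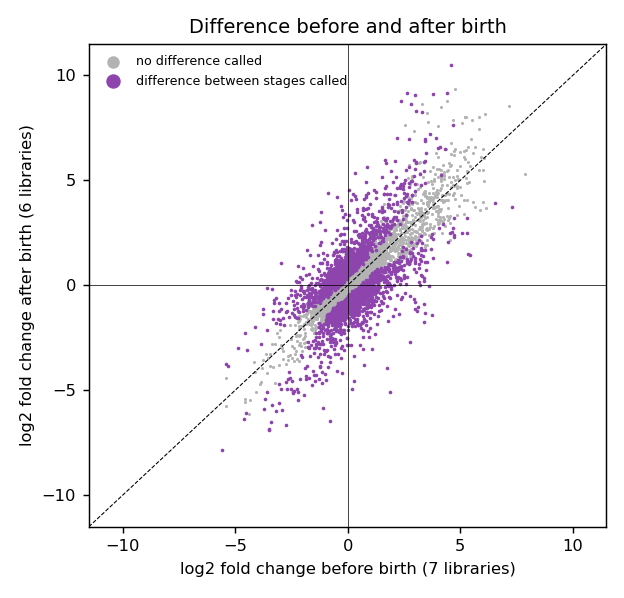
Log2 fold change of ganglion cells over neurogenic progenitors before birth (7 libraries, early-stage progenitors) and after birth (6 libraries, late-stage progenitors) for the 7716 gene rows tested at both stages. Purple rows were called for a difference between the stages; the dashed line marks equal values, and the correlation across rows is 0.79.

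Both rows named for the largest postnatal excess in ganglion cells were near 0 in ganglion cells in the earliest embryonic library. Row 30874 had no UMI in any late-stage neurogenic progenitor sum, 0 of 2485035 UMIs, and 102 to 234 CPM in postnatal ganglion cells, so that it was at least 115-fold higher against a floor of 3 counts over the group. Before birth its ganglion cell level was 0.343 CPM at E18, 6.44 and 9.95 CPM at E21, 87.3 and 46.5 CPM at E24, and 110 and 109 CPM at E26. The order followed age, and E26 reached the lower end of the postnatal range. Row 30873 had 1 UMI in late-stage neurogenic progenitors, in P8b, and 99.7 to 228 CPM in ganglion cells, with a pooled ratio whose 95% exact counting interval ran from 71.9 to 15848. Before birth it ran from 0.333 CPM at E18 to 162 CPM in E26b in ganglion cells, with a median of 68.8 CPM over the 7 libraries. Its fitted postnatal log2 fold change was 8.04 (SE 0.46, edgeR adjusted p = 1.37e-11) and 10.52 without P8b.

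On the progenitor side, row 12414 was at 93.5 to 257 CPM in late-stage neurogenic progenitors and had 7 UMIs in ganglion cells (log2 fold change −7.83, SE 0.41, edgeR adjusted p = 3.55e-12). Row 25863 was at 802 to 1234 CPM in 5 of the late-stage progenitor sums and 362 CPM in P8b, against 4.40 to 10.5 CPM and 23.7 CPM in ganglion cells (log2 fold change −6.85, SE 0.34, edgeR adjusted p = 1.97e-12). Before birth, row 25863 averaged 717 CPM in early-stage neurogenic progenitors and 65.2 CPM in ganglion cells.

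Where the stages differed was tested directly, as the product of type and stage over all 13 libraries. Of 12475 rows, 3263 (26.2%) were called, 1647 with a more ganglion-high difference after birth (13.2%) and 1616 with a less ganglion-high one (13.0%). The stages differ in the progenitor annotation and in depth as well as in age, and these cannot be told apart. With all sums thinned to the smallest one, 386 rows were called, 127 and 259.

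Row 26940 was low in ganglion cells before birth and high after it, at 0.80 to 1.64 CPM in embryonic and 68.3 to 165 CPM in postnatal ganglion cells. Its product was 5.49 log2 units (SE 1.03, edgeR adjusted p = 0.000423), with 2 UMIs in late-stage progenitors and a pooled postnatal ratio whose exact counting interval ran from 37.4 to 1120. Row 30874 had a product of 7.62 (SE 2.23, edgeR adjusted p = 0.0171) that missed the threshold without E26a (5.34, edgeR adjusted p = 0.107) and without the library block (7.68, edgeR adjusted p = 0.355). As its late-stage progenitors were at 0, these fitted values are no bound.

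Row 32464 changed sides. Before birth ganglion cells were above neurogenic progenitors in every library, at 26.1 to 37.8 CPM against 4.86 to 16.4 CPM. After birth late-stage progenitors were at 80.4 to 421 CPM and ganglion cells at 6.21 to 20.3 CPM, and the product was −6.90 (SE 0.39, edgeR adjusted p = 1.58e-10). Among the cell types summed here, the highest level of this row was in horizontal cells, at means of 387 CPM before and 1001 CPM after birth. The other annotated types were not examined. Row 8876 was at 63.8 CPM in E18 ganglion cells at 17.7 and 19.3 CPM at E21 and at 5.40 to 6.91 CPM from E24 on, against 7.55 to 44.6 CPM in early-stage progenitors. After birth late-stage progenitors held 145 to 407 CPM and ganglion cells 0.287 to 9.88 CPM, for a product of −5.68 (SE 0.87, edgeR adjusted p = 4.69e-05).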

How the data were processed

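Whole 13LGS retinas were profiled by droplet single-cell RNA sequencing. The authors deposited 1 matrix of UMI counts per gene row and cell, whole numbers that are not normalized, and a cell table with cell name, time point and cell type. Its other 3 columns, embedding coordinates, were not used. Per the study's methods the authors used CellRanger 3.1.0 with the HiC_Itri_2 genome, combined libraries by CellRanger aggr, and named clusters in Seurat 4.0.4 from FindAllMarkers genes. The labels' processing field also names GRCm38, a mouse build. Not given in the sources used here are the cell filters, any doublet removal and any depth equalisation by aggr. The matrix had 34181 rows and the gene name list 30265 entries without row numbers, so names could not be joined. The planned lists of named markers were therefore not used, and no gene name or sequence is given.

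A library was a time point plus the suffix of the cell name. P1 had 2 suffixes and 1 sample in the labels, so its 6920 cells were left out. All other annotated cells were kept and no doublet caller was run. Libraries are not stated to come from separate animals, so p-values measure the spread between libraries, which may be technical.

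UMI counts were summed per library and type (at least 10 cells) into sums of 1211584 to 12495373 UMIs for the embryonic types, 118668 UMIs or more with horizontal cells, and 84310 to 3402923 UMIs after birth. They were tested in edgeR 4.0.16 (R 4.3.3) with filterByExpr, TMM scaling, glmQLFit and glmQLFTest, library as block and Benjamini-Hochberg adjustment over all rows tested. Both types came from the same library, which is where the pairing comes from. Seurat tests on single cells, as in the study, were replaced by these sums because cells are not replicates. SE is the size of the log2 fold change divided by the square root of F. CPM beside a test are scaled by TMM, and means in other cell types are plain CPM. Differences per library and root mean squares used log2(CPM + 1). Counting intervals and floors cover counting error only. Measures per library used exact sign-flip or pairing permutations, two-sided (scipy 1.17.1). Named rows were 2 in each direction with the largest log2 fold change or product among called rows. For fold changes, they had the same direction in every library, no overlap between types and at least 100 CPM in the higher group. For products, they had at least 100 CPM in the highest group and no overlap of the differences per library between the groups set apart. These groups were E18 and E21 against E24 and E26, or the embryonic against the postnatal libraries.

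On simulated counts in these sums, the fit recovered 98% of 100 rows changed by 1 log2 unit and 100% of 100 rows changed by 2 between the embryonic types, with 12 false calls among 13993 rows. Recovery at 1 log2 unit was 99% against horizontal cells (13556 rows), 78% in the postnatal comparison (7794 rows) and 64% for the stage product (12475 rows), and 100% at 2 in each. For the product with day it was 98% at 0.25 and 100% at 0.5 log2 units per day (13993 rows). These rates describe only the 100 rows changed at each size. Whether they hold for rows of low level was not tested. Alternatives changed scaling (DESeq2 1.42.0 size factors), filter, block, depth, cells and libraries. Cells, comparisons and lists were chosen with earlier results of these data known.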

Additional observations from a re-analysis of the deposited data

Results flagged for a closer look

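The difference between ganglion cells and neurogenic progenitors changed with embryonic day in 1129 rows by edgeR's test of the product of type and day. By name these included row 26501 (0.51 log2 units per day), row 11242 (0.47), row 30184 (−0.67) and row 21522 (−0.64). Row 11242 lost its call without E18, and row 21522 without E26a or without cells of over 2 times the median UMIs. With E24 and E26 set against E18 and E21, neither was called (edgeR adjusted p = 0.0809 for row 11242 and 0.0526 for row 21522).

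Between the embryonic and postnatal libraries the difference changed in 3263 rows, among them row 30874 (7.62 log2 units), row 26940 (5.49), row 32464 (−6.90) and row 8876 (−5.68). Row 30874 lost its call without E26a.

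P8b lay far from the other 5 postnatal libraries in 2 of 17 sets of values examined, where chance alone flags about 1 set in 20. Its log2 difference, as log2(CPM + 1), was 4.17 for row 30873 against 6.65 to 7.57 in the others, and −3.88 for row 25863 against −7.43 to −6.42. P8b had 33 late-stage neurogenic progenitors, the fewest of the 6, and 3180 median UMIs per ganglion cell, the lowest of the 6. Whether either value bears on these differences was not tested.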

How the results depend on the processing

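The count for ganglion cells against early-stage neurogenic progenitors was 9511 rows, 8939 to 9596 with each library left out, 8746 with the library block dropped from the model, 8935 by DESeq2's test and 6322 with 124 cells per sum. The product with day called 1129 rows, 307 to 1429 with each library left out, 438 without the block, 502 in thinned sums and 678 as E24 and E26 against E18 and E21. It called 1111 (529 gaining, 582 losing) without E26a and cells of over 2 times the median UMIs together, a setting chosen after the data were seen. Without the block, horizontal cells gave 6236 of 7915 rows, the postnatal comparison 3811 of 4329 and the stage product 2300 of 3263. Thinning to the smallest sum, which leaves fewer rows to test, gave 953, 839 and 386. Leaving out each library gave 7054 to 8103, 3760 to 4696 and 2568 to 3434. The share of UMIs in the 100 most abundant rows, −4.09 points (−4.45 to −3.50 with each library left out), reversed to 1.71 with the 20 most abundant rows, and the rho of the spread with age ran from 0.0883 to 0.971 with each library left out. The rho of ganglion cells per progenitor ran from 0.00 to 0.74, and that of the UMI ratio from 0.96 to 0.97. With 6 libraries the exact paired tests cannot go below p = 0.0312, and each of the 3 reached it.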

Other observations

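Photoreceptor precursors, which also arise from early-stage neurogenic progenitors, were on the progenitor side of the same 200 rows. Their median share of UMIs in ganglion cell rows was 14% and 11.4% at E21, 18.5% and 20.8% at E24, and 28.6% and 24.1% at E26, with 27 of 825 cells over 50%. Among early-stage primary progenitors, 0 of 8841 cells were over 50%, and library medians were 1.95% to 5.08%. These are descriptions of the annotation, with no test.

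Rows 31159 and 32094, which averaged 200 and 131 CPM in embryonic horizontal cells, averaged 8.12 and 0.218 CPM in the horizontal cells of 6 postnatal libraries. Row 30184, lower in embryonic horizontal cells (33.2 ± 28.9 CPM, SD, n = 7) than in embryonic ganglion cells (426 ± 47.5 CPM), averaged 1131 ± 565 CPM in postnatal horizontal cells (n = 6) and 604 ± 288 CPM in postnatal ganglion cells (n = 7). Neither change was tested.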
